A study of Rattus norvegicus with 6 samples.

Results

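The transcripts described here encode the factors that start, extend and end protein synthesis on the cytosolic ribosome, together with the kinases, binding proteins and methyltransferases named after them. They were chosen by gene name alone, as every row of the count table whose name begins with Eif1 to Eif6, Eef1 or Eef2, or is Etf1, Gspt1 or Gspt2. The rule found 68 genes among the 32883 of the table. RNA came from GH4C1, an established wild-type line of rat pituitary cells that make growth hormone and prolactin (somatolactotrophs). All cells had been treated with psoralen, which crosslinks base-paired RNA strands, and the study sought RNAs in direct contact with the long noncoding RNA Neat1. RNA was pulled down with oligonucleotide pool A or pool B, with 3 libraries for each pool, called A1, A2 and A3 and B1, B2 and B3 by their replicate numbers. Nothing else distinguishes the groups in the labels, which do not say which sequences either pool holds or whether one pool served as a control. Input RNA was not analysed here, so a level is the amount recovered and not the amount in the cells. As in any bulk sample, fewer cells and less recovered RNA per cell cannot be told apart.

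Translation begins when initiation factors bring the initiator tRNA and the small ribosomal subunit to the mRNA cap and from there to a start codon. The factor eIF2 carries the tRNA, eIF2B recharges eIF2 with GTP, the multisubunit eIF3 organises the complex on the small subunit, and eIF4E, eIF4G and eIF4A bind and unwind the capped end. Elongation factors eEF1A and eEF2 then deliver tRNAs and move the ribosome along, and the release factors eRF1 and eRF3 end the chain. Much of the cell's control of protein output acts here, through kinases that phosphorylate eIF2 and through proteins that hold eIF4E. Subunits of one complex act together as proteins, but each is made from its own mRNA, and it is these mRNAs that were counted.

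Total counts per library lay between 1826390 and 3685899, so a count of 0 allows up to 3 counts, or between 0.814 and 1.64 CPM (counts per 1000000 counts of that library). The intervals and limits given here cover counting error only. Libraries of the same pool differed by more than sampling noise, with a chi-square per degree of freedom between 6.37 and 23.3 for the 6 pairs. The labels do not say whether they came from separate cultures, so the p-values measure only the spread between these libraries, which may be technical. All 6 markers fixed for the lactosomatotroph lineage were detected in every library, among them Prl, Gh1 and Pou1f1, with summed levels of 4587 to 5350 CPM with pool A and 28412 to 35466 CPM with pool B. Most of that sum was Chgb, for a secretory granule protein, at 3742 CPM on average for A1 to A3 and 31688 CPM for B1 to B3. Among the others, Prl and Pitx1 were A-enriched (log2 fold changes, pool A over pool B, of 0.83 and 1.22), and Gh1 and Pou1f1 (0.18 and -0.23) did not pass the test described below. Of 4 markers of other pituitary cells Tshb and Fshb were at 0 in every library, and the list, mostly Lhb, summed to 9.10 to 19.5 CPM with pool A and 40.9 to 45.0 CPM with pool B. The 3 fibroblast and immune markers summed to at most 22.1 CPM in any library. Some of these markers move with the pools too, and their part in the results was not tested.

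The 68 genes together took 1.43%, 1.24% and 1.41% of all counts in the pool A libraries and 1.76%, 1.72% and 1.85% in the pool B libraries. Each share is known to within 0.02 percentage points by counting (the 95% Wilson interval of the lowest, for example, was 1.23% to 1.26%). The pools did not overlap, averaging 1.36% ± 0.10 (SD, n = 3) for A1 to A3 and 1.78% ± 0.067 (SD, n = 3) for B1 to B3. A few transcripts carried most of these counts. Eef2, which encodes the translocase of elongation, alone supplied 33.9%, 26.9% and 30.2% of them with pool A and 32.1%, 30.7% and 33.2% with pool B. Without Eef2 the summed level was 9459 ± 375 CPM (SD, n = 3) for A1 to A3 and 12076 ± 248 CPM (SD, n = 3) for B1 to B3. The makeup of the remainder differed between the pools. Eif3a supplied 15.4%, 15.5% and 16.4% of the factor counts with pool A and 7.84%, 7.68% and 7.70% with pool B, while Eif4g1 supplied 2.83%, 2.93% and 2.58% with pool A and 12.3%, 12.4% and 11.0% with pool B. CPM values are not divided by transcript length, so they show shares of counts and not the order of these transcripts in molecules.

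**Figure D1:**
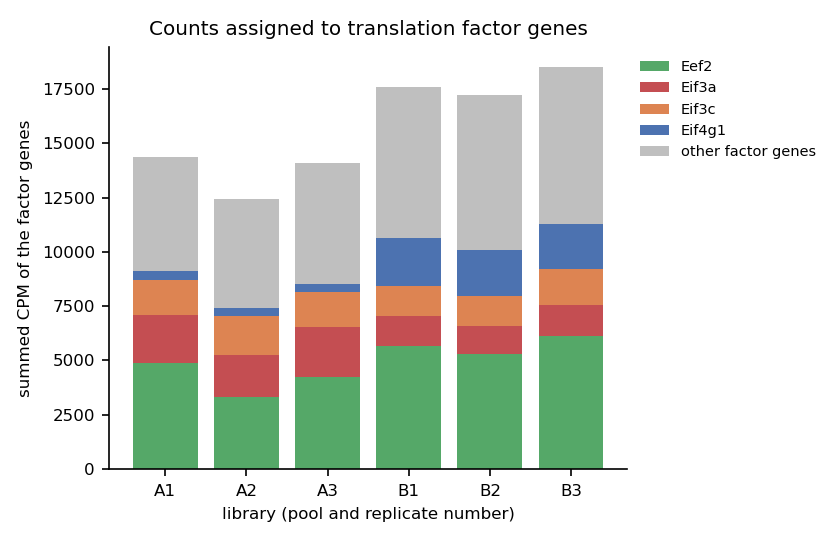
Summed CPM (bar height) of the 68 translation factor genes in each of the 6 libraries, named by pool and replicate number, split into Eef2, Eif3a, Eif3c, Eif4g1 and all other factor genes. The pool B bars are taller than the pool A bars, the Eif3a part is larger with pool A, and the Eif4g1 part is larger with pool B.

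Of the 68 genes, 65 had enough counts to be compared between the pools. Eif5a2 and Eif2s3y had no count in any library, and Eef1akmt1 had 9, 3 and 8 counts with pool A and 8, 2 and 11 with pool B. In edgeR's quasi-likelihood test with Benjamini-Hochberg adjustment over all 11582 genes tested, 39 of the 65 factor genes passed an adjusted p of 0.05, which is 60.0%, against 40.6% of all genes. The shares were nearer to each other among genes with a mean of at least 100 counts, where 31 of 44 factor genes (70.5%) and 61.7% of all genes passed. Transcripts of the translation apparatus did not move as a block. Of the 39, 18 were recovered more with pool A and 21 more with pool B, here called A-enriched and B-enriched, against backgrounds of 18.6% and 22.0% of all genes. Over the 65 the median log2FC (log2 fold change, pool A over pool B) was -0.055, beside 0.015 for all genes tested, and single genes ran from -2.39 to 2.48. Called differences of more than 2-fold comprised 9 A-enriched and 11 B-enriched genes, together 30.8% of the 65 against 25.4% of all genes. CPM ranges of the pools did not overlap for 43 of the 65 genes (66.2%), against 49.1% of all genes. The split depended on the scaling of the libraries: A-enriched genes were 46.2% of the factor genes called here, 36.8% with total counts alone (14 and 24 genes) and 61.1% with upper-quartile factors (22 and 14 genes). Over all genes called, the same shares were 45.8%, 36.9% and 52.8%. Those scalings moved the median log2FC of all genes by -0.14 and 0.10. All 39 called genes kept their direction under each of the 15 alternative analyses in which they were tested, and 27 of them also kept their call; Gspt2 was not tested with a minimum of 10 counts in every library. The counts by role below are descriptions, to be read against the shares of 18.6% A-enriched and 22.0% B-enriched over all genes.

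**Figure D2:**
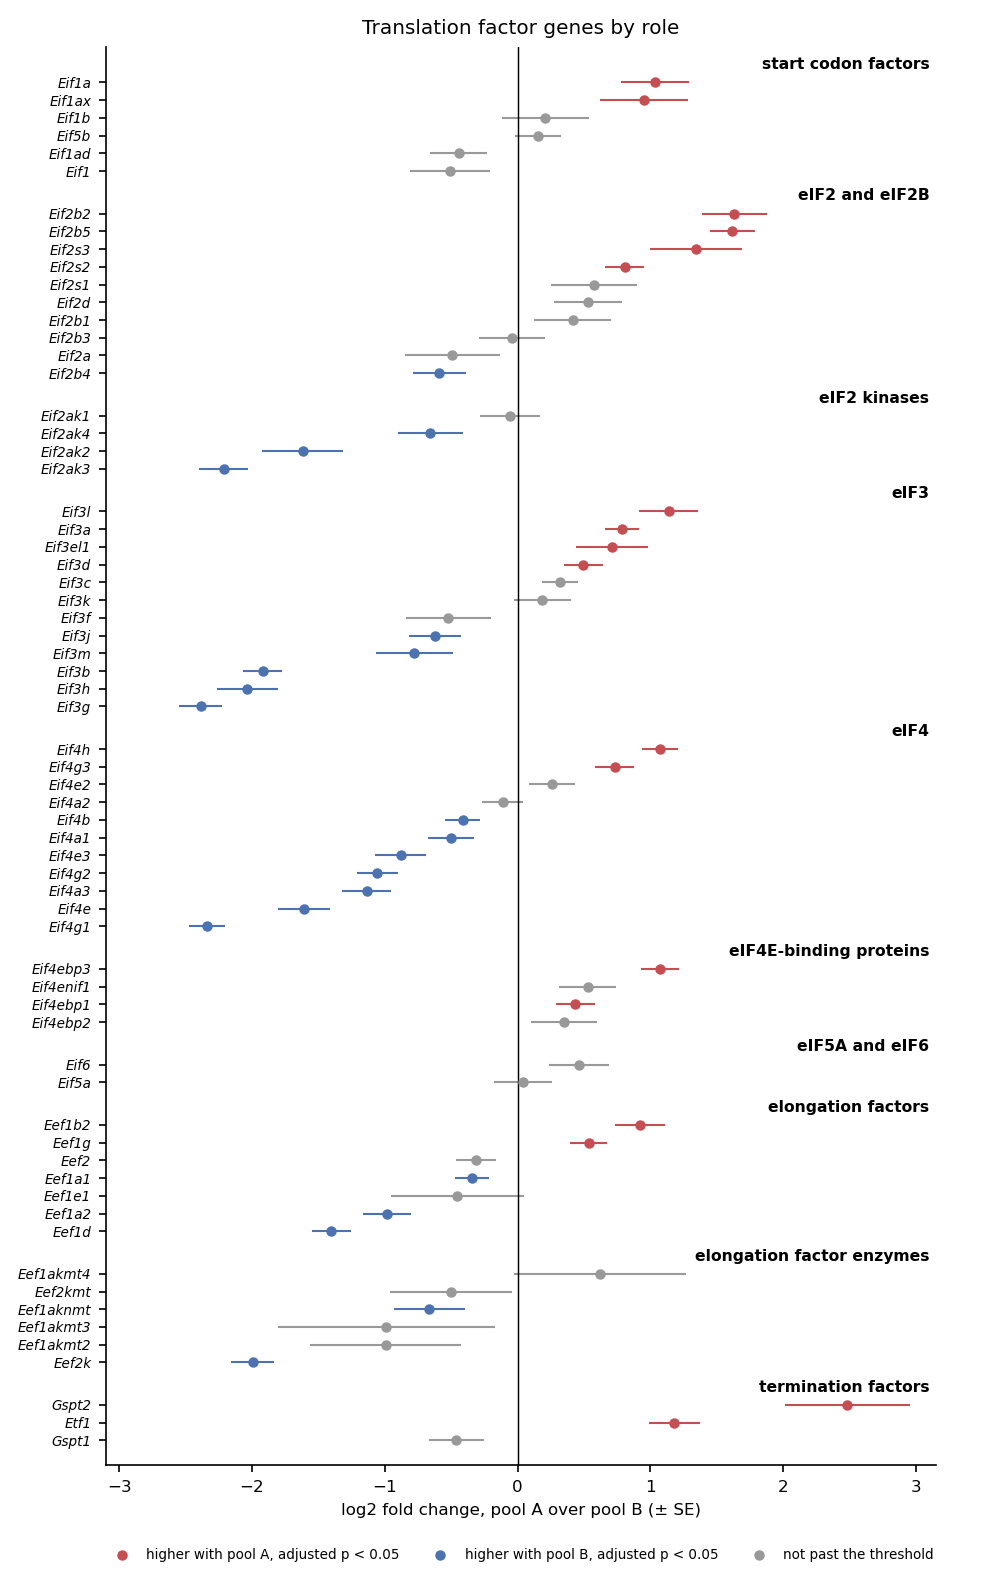
Log2FC, pool A over pool B (horizontal axis, ± SE from edgeR, 3 libraries per pool) for the 65 translation factor genes tested, grouped by role. Red points are A-enriched and blue points B-enriched at an adjusted p under 0.05, grey points did not pass, and most role groups hold points on both sides of 0.

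Among the factors that settle on the start codon, the mRNAs for eIF1A were A-enriched and the others did not pass the test. Eif1a and Eif1ax encode near-identical forms of eIF1A, which helps the small subunit scan, so reads of this pair may not be separable. Eif1a (ENSRNOG00000031421) stood at 67.3, 44.3 and 64.0 CPM with pool A and 43.6, 32.3 and 18.5 CPM with pool B. The lowest pool A library was only just above the highest pool B library, and the log2FC was 1.04 ± 0.25 (SE) at an adjusted p (edgeR) of 0.00165. Eif1ax had a log2FC of 0.95 ± 0.33 (SE) on overlapping ranges (edgeR: adjusted p 0.0216), and its call was lost with total counts (0.057) and without A2 (0.0837), A3 (0.0637) or B3 (0.117). Eif1 and Eif1b encode a pair of closely related proteins that guard the accuracy of start codon choice. Eif1 read 11.7, 21.4 and 27.6 CPM with pool A and 32.7, 25.7 and 35.2 CPM with pool B. Eif1b read 14.1, 33.2 and 20.4 CPM with pool A and 23.5, 22.4 and 18.5 CPM with pool B. The pools overlapped for both, with log2FC values of -0.51 and 0.21 (edgeR: adjusted p 0.188 and 0.649), and the sign of Eif1b turned without A2. Eif5b, which encodes the GTPase that joins the ribosomal subunits, had 86.8, 118 and 120.5 CPM with pool A and 128, 98.0 and 95.7 CPM with pool B, and Eif1ad, a nuclear protein that shares a domain with eIF1A, had a log2FC of -0.44 ± 0.21 (SE); neither passed (edgeR: adjusted p 0.52 and 0.098). Eif1ad passed with total counts (0.0277) and without A1 (0.0213).

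Subunits of eIF2 and of its exchange factor eIF2B comprised 10 tested genes, of which 4 were A-enriched, 1 was B-enriched and 5 did not pass; the 5 called stand beside 40.6% of all genes. For eIF2 itself, the beta subunit gene Eif2s2 was at 211, 258 and 229 CPM with pool A and 159, 131 and 151 CPM with pool B. Its ranges were separate, with a log2FC of 0.81 ± 0.15 (SE) at an adjusted p (edgeR) of 6.17e-05. Eif2s3, for the GTP-binding gamma subunit, had a log2FC of 1.34 ± 0.35 (SE) (edgeR: adjusted p 0.00256), on pool B counts of 44, 10 and 39. Eif2s1, for the alpha subunit that stress kinases phosphorylate, pointed the same way at 0.57 ± 0.32 (SE) without passing (edgeR: adjusted p 0.163).

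Within eIF2B the subunit mRNAs separated. Eif2b5 (ENSRNOG00000038160), for the catalytic epsilon subunit, had 158, 129.7 and 139 CPM with pool A and 48.4, 48.7 and 56.4 CPM with pool B. Every pool A library exceeded every pool B library by more than 2-fold, and the log2FC was 1.62 ± 0.17 (SE) (edgeR: adjusted p 8.85e-09). Eif2b2, for the beta subunit, had 61.6, 62.9 and 58.7 CPM with pool A and 27.9, 23.0 and 14.4 CPM with pool B, a log2FC of 1.63 ± 0.24 (SE) (edgeR: adjusted p 3.92e-06). Eif2b4, for the delta subunit, went the other way, from 54.8, 44.3 and 48.0 CPM with pool A to 71.9, 69.0 and 104 CPM with pool B. Its log2FC was -0.59 ± 0.20 (SE) (edgeR: adjusted p 0.019), and the call was lost with upper-quartile factors (0.0518) and without A2 (0.0822), A3 (0.0716) or B3 (0.216). The ratio of Eif2b5 to Eif2b4 counts inside a library, which no scaling between libraries can change, was 2.88 to 2.93 with pool A and 0.544 to 0.706 with pool B. This and the other subunit ratios below were chosen after the values were seen and are given without a test. Eif2b1 and Eif2b3, for the alpha and gamma subunits, had log2FC values of 0.42 and -0.042 and did not pass (edgeR: adjusted p 0.276 and 0.916). Eif2a and Eif2d encode separate proteins that can bring tRNA to the ribosome in place of eIF2, and they did not pass either, with log2FC values of -0.49 and 0.53 (edgeR: adjusted p 0.296 and 0.101). Eif2d passed with upper-quartile factors (0.0469) and without A3 (0.0354) or B2 (0.0474).

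Of the 4 kinases that phosphorylate eIF2, 3 were B-enriched, beside 22.0% of all genes. Each senses a different stress. Eif2ak3 (ENSRNOG00000006069), for the endoplasmic reticulum stress sensor PERK, read 27.4, 28.5 and 29.2 CPM with pool A and 131, 133 and 171 CPM with pool B. The pool A libraries lay close together and far below every pool B library, a 4.63-fold difference with a log2FC of -2.21 ± 0.19 (SE) (edgeR: adjusted p 1.31e-10). Eif2ak2, for the double-stranded RNA sensor PKR, read 9.77, 14.2 and 13.2 CPM with pool A and 27.3, 42.7 and 55.6 CPM with pool B, a log2FC of -1.62 ± 0.30 (SE) (edgeR: adjusted p 9.03e-05). Eif2ak4, for the amino acid starvation sensor GCN2, read 23.9, 32.0 and 22.3 CPM with pool A and 45.3, 49.8 and 41.6 CPM with pool B. Its log2FC was -0.66 ± 0.24 (SE) (edgeR: adjusted p 0.0321); the call was lost with upper-quartile factors (0.0719) and without A1 (0.102), A3 (0.144), B1 (0.0629) or B2 (0.0867). Eif2ak1, for the heme-regulated kinase HRI, overlapped between the pools, with 51.3, 34.8 and 65.6 CPM with pool A, 73.3, 42.7 and 56.0 CPM with pool B and a log2FC of -0.055 ± 0.23 (SE) (edgeR: adjusted p 0.877) whose sign turned with upper-quartile factors. Relative to Eif2ak1 inside the same library, Eif2ak3 counts were 4.42-fold higher in the pool B libraries. Eif2ak1 overlaps Aimp2 and Ankrd61 in the RefSeq gene list, so its counts may include reads of those genes.

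Of 12 tested genes of the eIF3 complex, 4 were A-enriched and 5 were B-enriched, where 18.6% and 22.0% of all genes were, and the median log2FC was -0.17. On the pool A side was Eif3a (ENSRNOG00000010117), which encodes the large scaffold subunit, with 2208, 1928 and 2305 CPM with pool A and 1380, 1321 and 1425 CPM with pool B. Every pool A library was above every pool B library, and the log2FC was 0.79 ± 0.13 (SE) (edgeR: adjusted p 1.69e-05). Eif3l had 60.8, 51.0 and 85.3 CPM with pool A and 38.2, 26.3 and 32.9 CPM with pool B, a log2FC of 1.14 ± 0.22 (SE) (edgeR: adjusted p 0.000137), the largest of the subunits on this side. Eif3d, for the subunit that can itself bind the cap of some mRNAs, had a log2FC of 0.50 ± 0.14 (SE) (edgeR: adjusted p 0.00691), and its call was lost with total counts (0.0657) and without A1 (0.0547). Eif3el1 had one of 0.71 ± 0.27 (SE) on overlapping ranges (edgeR: adjusted p 0.039); the values spanned 0.00726 to 0.173 among the alternatives, and the call was lost with total counts and without any 1 library other than B1, with 0.0593 to 0.173 in those 5 refits.

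The largest differences among the subunits were those of the B-enriched Eif3g, Eif3h and Eif3b. Eif3g (ENSRNOG00000020619), for an RNA-binding subunit, had 99.0, 74.4 and 147 CPM with pool A and 578, 627 and 639 CPM with pool B. The pool B libraries agreed within a narrow range and all stood far above the highest pool A library. Its log2FC was -2.39 ± 0.16 (SE), a 5.23-fold difference (edgeR: adjusted p 2.1e-12). Eif3b, for the subunit that binds the scaffold protein made from Eif3a, had 126, 106 and 109.8 CPM with pool A and 397, 525 and 513 CPM with pool B, a log2FC of -1.92 ± 0.15 (SE) (edgeR: adjusted p 2.04e-11). Eif3h had 30.9, 20.6 and 21.6 CPM with pool A and 86.6, 98.0 and 149.8 CPM with pool B, and its log2FC was -2.04 ± 0.23 (SE) (edgeR: adjusted p 3.24e-08). Eif3j and Eif3m had log2FC values of -0.62 ± 0.19 (SE) and -0.78 ± 0.29 (SE) (edgeR: adjusted p 0.0119 and 0.0316). The call of Eif3j was lost without A1 (0.0701), and that of Eif3m with upper-quartile factors and without A1, A3, B2 or B3 (up to 0.171).

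Inside single libraries these opposite differences changed the balance of subunit mRNAs. For each count of Eif3g there were 15.6 to 25.9 counts of Eif3a with pool A and 2.11 to 2.39 with pool B. For each count of Eif3b there were 17.6 to 21.0 counts of Eif3a with pool A and 2.52 to 3.47 with pool B. The abundant Eif3c had 1616, 1773 and 1606 CPM with pool A and 1419, 1352 and 1660 CPM with pool B. Its ranges overlapped, and a log2FC of 0.32 ± 0.14 (SE) did not pass (edgeR: adjusted p 0.063), although it passed with upper-quartile factors (0.0135), with DESeq2 (0.0188), with limma-voom (0.00727) and without A3 (0.0261). Eif3k and Eif3f had log2FC values of 0.19 and -0.52 (edgeR: adjusted p 0.531 and 0.206).

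**Figure D3:**
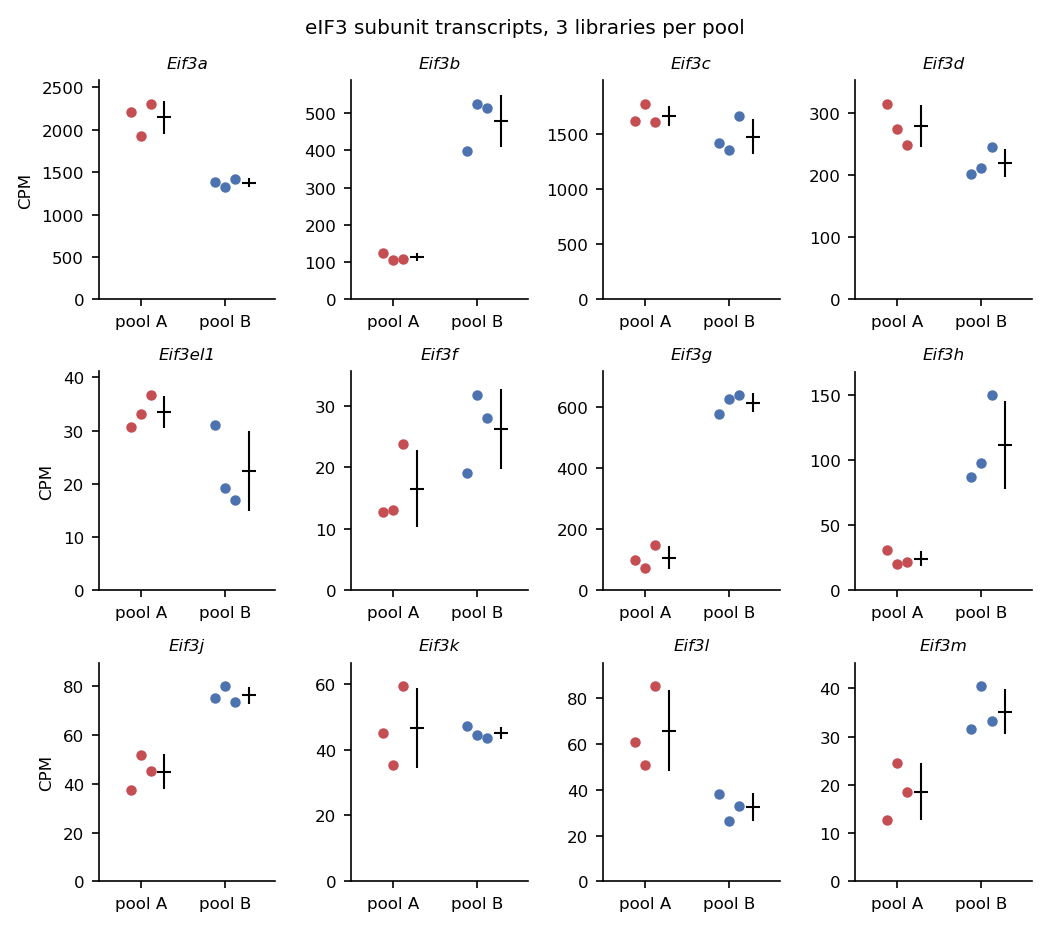
CPM (vertical axis from 0, its range set per panel) of the 12 eIF3 genes in each of the 3 libraries of pool A (red) and pool B (blue), with mean ± SD in black. Eif3a and Eif3l lie above in the pool A libraries, whereas Eif3b, Eif3g and Eif3h lie above in the pool B libraries with wide gaps.

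The cap-binding and helicase group held 7 B-enriched and 2 A-enriched genes among 11 tested, beside the 22.0% and 18.6% of all genes. The largest difference was that of Eif4g1 (ENSRNOG00000001738), for the main scaffold that links cap, helicase and eIF3. It read 406, 364 and 363 CPM with pool A and 2172, 2136 and 2042 CPM with pool B. The libraries of each pool lay close together and the pools were far apart, 5.05-fold in the fit, with a log2FC of -2.34 ± 0.13 (SE) (edgeR: adjusted p 8.1e-14). Eif4g2, for a related scaffold (DAP5) that lacks the eIF4E-binding part, read 110.2, 123 and 177 CPM with pool A and 270.3, 347 and 321 CPM with pool B, a log2FC of -1.06 ± 0.15 (SE) (edgeR: adjusted p 2.4e-06). The third scaffold gene, Eif4g3, was A-enriched at 219, 195 and 202 CPM, against 149.6, 123 and 137 CPM with pool B. Its log2FC was 0.73 ± 0.14 (SE) (edgeR: adjusted p 0.000166). Counts of Eif4g1 relative to Eif4g3 therefore differed 8.44-fold between the pools inside libraries, with log2 ratios of 0.88 ± 0.03 with pool A and 3.96 ± 0.14 with pool B (SD, n = 3).

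Cap-binding proteins differed among themselves as well. Eif4e, for the main cap-binding protein, read 45.3, 33.2 and 45.5 CPM with pool A and 102, 143 and 174 CPM with pool B. The pools were separate although the pool B libraries were spread, with a log2FC of -1.61 ± 0.20 (SE) (edgeR: adjusted p 1.41e-07). Eif4e3, for a divergent family member, read 38.8, 44.7 and 42.4 CPM with pool A and 86.2, 96.9 and 73.8 CPM with pool B, a log2FC of -0.88 ± 0.19 (SE) (edgeR: adjusted p 0.000447). Eif4e2, for the cap-binding protein 4EHP that represses translation, read 108, 86.6 and 83.1 CPM with pool A and 91.3, 88.7 and 77.9 CPM with pool B; the pools overlapped and the log2FC of 0.26 ± 0.17 (SE) did not pass (edgeR: adjusted p 0.248). Eif4e3 shares its locus with Foxp1 in the RefSeq gene list, and with the counting scheme not given in the sources used here its counts may include reads of that gene.

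Of the helicases, Eif4a3, which encodes a core protein of the exon junction complex and is not a cap-complex helicase, read 36.6, 52.2 and 48.6 CPM with pool A and 117, 113 and 103 CPM with pool B. Its log2FC was -1.14 ± 0.18 (SE) (edgeR: adjusted p 1.24e-05). The translation helicases differed less. Eif4a1 read 73.5, 70.8 and 59.9 CPM with pool A and 115, 99.1 and 107 CPM with pool B. Eif4a2 read 99.8, 109 and 113 CPM with pool A and 139.7, 112 and 131 CPM with pool B. Only Eif4a1 was called, at a log2FC of -0.50 ± 0.17 (SE) (edgeR: adjusted p 0.0208), while Eif4a2 had one of -0.11 ± 0.15 (SE) (edgeR: adjusted p 0.602). The call of Eif4a1 was lost with upper-quartile factors (0.0658) and without A3 (0.132), B1 (0.0715) or B3 (0.0585). In the RefSeq list both genes host small nucleolar RNA genes in their span, as do Eif3a, Eif4g1, Eif4g2, Eef2, Eef1b2 and Etf1. The helicase cofactors were split: Eif4h had 316 ± 12.3 CPM with pool A and 166 ± 5.87 CPM with pool B (SD, n = 3), a log2FC of 1.07 ± 0.13 (SE) (edgeR: adjusted p 1.9e-07). Eif4b had 532 ± 81.7 CPM with pool A and 780.1 ± 37.5 CPM with pool B (SD, n = 3), a log2FC of -0.41 ± 0.13 (SE) (edgeR: adjusted p 0.0111), and its call was lost with upper-quartile factors and without A1, A2 or B3 (up to 0.0651).

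**Figure D4:**
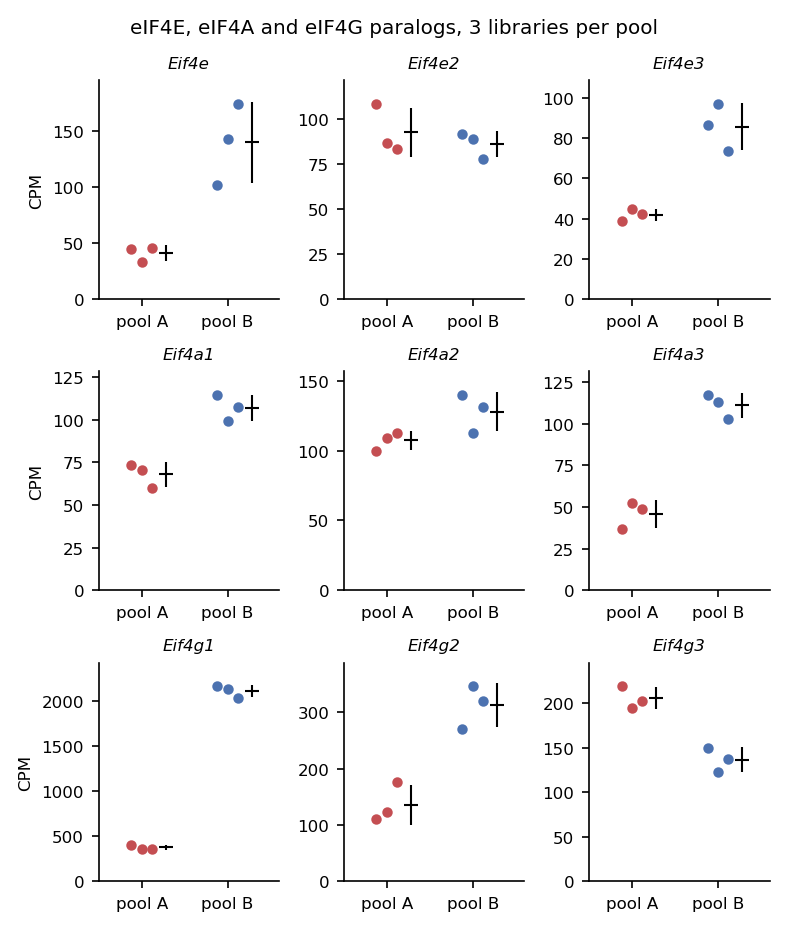
CPM (vertical axis from 0, its range set per panel) of the eIF4E, eIF4A and eIF4G paralogs in each of the 3 libraries of pool A (red) and pool B (blue), with mean ± SD in black. Eif4g1, Eif4g2, Eif4e, Eif4e3 and Eif4a3 lie above in the pool B libraries, Eif4g3 in the pool A libraries, and the pools overlap for Eif4e2 and Eif4a2.

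Of 4 genes for proteins that bind eIF4E, most of which hold it away from eIF4G, 2 were A-enriched, beside 18.6% of all genes. Eif4ebp3 (ENSRNOG00000030247) read 318, 351 and 317 CPM with pool A and 201, 165 and 154 CPM with pool B, with wide separation and a log2FC of 1.07 ± 0.14 (SE) (edgeR: adjusted p 6.43e-07). Eif4ebp1, for the best-known target of the kinase mTOR in this family, read 200.2, 152 and 173 CPM with pool A and 131, 148 and 151 CPM with pool B. The pools almost touched, at a log2FC of 0.44 ± 0.15 (SE) (edgeR: adjusted p 0.02), and the call was lost with total counts (0.153) and without A1 (0.137) or B1 (0.0759). Eif4ebp2 read 38.5, 35.2 and 34.5 CPM with pool A and 22.8, 38.3 and 34.0 CPM with pool B, which overlapped (log2FC 0.35 ± 0.25 (SE), edgeR: adjusted p 0.29). Eif4enif1, for a protein that carries eIF4E into the nucleus and to processing bodies, had a log2FC of 0.53 ± 0.22 (SE) close to the threshold (edgeR: adjusted p 0.0538), and it passed with DESeq2 size factors, upper-quartile factors, a minimum of 10 counts in every library and without A2 (down to 0.0206).

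Over the paralog sets named in the processing notes, 21 pairs of genes were compared by their count ratio inside each library. An exact two-sided permutation test of 3 against 3 libraries cannot give a p under 0.1, and after Benjamini-Hochberg adjustment over the 21 pairs the smallest value was 0.131, so no pair could pass. For the smallest ratio difference, that of Eif4ebp1 to Eif4ebp2, the log2 ratio was 2.27 ± 0.14 with pool A and 2.20 ± 0.29 with pool B (SD, n = 3).

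Neither tested gene of the eIF5A and eIF6 group passed. Eif5a encodes a factor that carries the unusual amino acid hypusine and helps the ribosome past difficult peptide bonds. It read 49.4, 47.9 and 37.6 CPM with pool A and 43.6, 55.3 and 47.7 CPM with pool B. The pools overlapped, and the log2FC of 0.038 ± 0.22 (SE) (edgeR: adjusted p 0.911) turned its sign with total counts and when A1, A2 or B1 was left out. Eif6, for a factor that keeps the ribosomal subunits apart, had a log2FC of 0.46 ± 0.23 (SE) (edgeR: adjusted p 0.107) and passed only with upper-quartile factors (0.0463).

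Of 7 elongation factor genes, 2 were A-enriched and 3 B-enriched, against 18.6% and 22.0% of all genes. Eef2 read 4870, 3340 and 4253 CPM with pool A and 5651, 5285 and 6146 CPM with pool B. In CPM, which use total counts, every pool B library was above every pool A library, but the spread within pool A was wide. The log2FC of -0.31 ± 0.15 (SE), which uses TMM scaling, did not pass (edgeR: adjusted p 0.104). It passed with total counts, DESeq2, limma-voom and without A1 (down to 0.00347). The pair of genes for eEF1A, the factor that brings aminoacyl-tRNA to the ribosome, were both B-enriched. Eef1a1 read 314, 318 and 394 CPM with pool A and 477, 475 and 482 CPM with pool B. Eef1a2, the form typical of nerve and muscle, read 60.0, 41.5 and 62.4 CPM with pool A and 125, 134 and 99.9 CPM with pool B. The pools did not overlap for either gene, with log2FC values of -0.34 ± 0.13 (SE) and -0.98 ± 0.18 (SE) (edgeR: adjusted p 0.0314 and 7.01e-05). The Eef1a1 call was lost with upper-quartile factors (0.133), with no filter on low counts (0.066), and without any 1 library other than A3 (between 0.053 and 0.122). Eef1a1 has many near-identical copies in mammalian genomes, and how reads shared with them were counted is not given in the sources used here, so its level is uncertain.

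A complex of the beta, delta and gamma subunits recharges eEF1A with GTP, and their mRNAs fell on opposite sides. Eef1d (ENSRNOG00000021638), for the delta subunit, read 128, 125 and 153 CPM with pool A and 327, 478 and 387 CPM with pool B. This was a 2.65-fold difference in favour of pool B, with a log2FC of -1.40 ± 0.15 (SE) (edgeR: adjusted p 8.22e-09). Eef1b2, for the beta subunit, read 74.6, 84.2 and 77.5 CPM with pool A and 51.5, 43.3 and 42.8 CPM with pool B, a log2FC of 0.92 ± 0.19 (SE) in favour of pool A (edgeR: adjusted p 0.00025). Eef1g, for the gamma subunit, read 320.4, 248 and 311 CPM with pool A and 244, 196 and 228 CPM with pool B, a log2FC of 0.54 ± 0.14 (SE) (edgeR: adjusted p 0.00275). For each count of Eef1d there were 1.97 to 2.51 counts of Eef1g with pool A and 0.410 to 0.746 with pool B. Eef1e1, which despite its name encodes a scaffold protein of the multi-tRNA synthetase complex, had a log2FC of -0.45 ± 0.50 (SE) and did not pass (edgeR: adjusted p 0.514).

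Among enzymes that act on elongation factors, Eef2k (ENSRNOG00000016448) had the largest difference. It encodes the calcium-dependent kinase that inactivates eEF2. Its levels were 128, 75.9 and 109 CPM with pool A and 521, 429 and 434 CPM with pool B. The pools were far apart without overlap, and the log2FC was -2.00 ± 0.16 (SE) (edgeR: adjusted p 5.13e-11). Eef1aknmt, for a methyltransferase of eEF1A, was B-enriched by a log2FC of -0.67 ± 0.27 (SE) (edgeR: adjusted p 0.0475), a call kept in only 3 of the 15 alternatives, with adjusted p-values from 0.0194 to 0.182. It was lost without any 1 library other than B1. The other tested methyltransferase genes, Eef2kmt, Eef1akmt2, Eef1akmt3 and Eef1akmt4, had between 0 and 43 counts per library and log2FC values from -0.99 to 0.62; none passed, with standard errors of 0.46 to 0.82 on the log2 scale.

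For termination, Etf1 encodes eRF1, which recognises stop codons, and read 104, 95.7 and 75.3 CPM with pool A and 43.6, 43.8 and 47.3 CPM with pool B. All pool A libraries were above all pool B libraries, with a log2FC of 1.18 ± 0.19 (SE) (edgeR: adjusted p 1.47e-05). Its partner eRF3 is encoded by Gspt1 and by the intronless copy Gspt2, whose close sequences may share reads. Gspt2 (ENSRNOG00000048817) had 68, 38 and 88 counts with pool A and 5, 13 and 10 with pool B, or 18.4, 15.0 and 27.6 CPM and 1.70, 7.12 and 3.78 CPM. Its log2FC of 2.48 ± 0.47 (SE) (edgeR: adjusted p 9.66e-05) was the largest in favour of pool A among all factor genes but rests on few pool B counts, and with 1 library left out it lay between 2.07 (without B1) and 3.01 (without B2). Gspt1 read 31.7, 45.9 and 58.0 CPM with pool A and 71.2, 71.7 and 62.0 CPM with pool B. The pools did not overlap in that order, yet the log2FC of -0.46 ± 0.21 (SE) did not pass (edgeR: adjusted p 0.0833), and it passed with total counts (0.0303) and without A3 (0.0378). For each count of Gspt1 there were 1.30 to 3.27 counts of Etf1 with pool A and 0.611 to 0.762 with pool B.

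Around these factors, 48 further genes of translation control were read from a separate list, and 24 of them passed, 12 in each direction (50.0% against 40.6% of all genes). Their median log2FC was 0.013. Of 9 genes for enzymes that modify the factors, 4 were B-enriched and 1 A-enriched (22.0% and 18.6% of all genes). Dohh, whose enzyme completes hypusine on eIF5A, read 41.0, 39.9 and 39.8 CPM with pool A and 244, 325 and 259.9 CPM with pool B, a log2FC of -2.63 ± 0.16 (SE) (edgeR: adjusted p 2.8e-13). Dph7, for a step in making diphthamide on eEF2, read 15.7, 9.49 and 18.5 CPM with pool A and 89.6, 86.0 and 112 CPM with pool B, a log2FC of -2.56 ± 0.23 (SE) (edgeR: adjusted p 6.19e-10). Neither of the substrates Eif5a and Eef2 passed.

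Mitochondria use their own elongation factors. Of 8 genes of mitochondrial translation 2 were A-enriched and 3 B-enriched, with the same 18.6% and 22.0% over all genes. Tufm, for the mitochondrial tRNA carrier, read 135, 126 and 135 CPM with pool A and 29.0, 26.3 and 26.5 CPM with pool B. Tsfm, for the factor that recharges it, read 22.0, 11.9 and 13.5 CPM with pool A and 62.4, 87.1 and 90.8 CPM with pool B. Neither gene's pools overlapped, and the log2FC values were 2.42 ± 0.18 (SE) and -2.17 ± 0.25 (SE) (edgeR: adjusted p 1.44e-11 and 6.08e-08). Tsfm overlaps Eef1akmt3 in the RefSeq list. Mtrf1, for a mitochondrial release factor, read 10.9, 11.5 and 4.39 CPM with pool A and 38.2, 30.7 and 29.5 CPM with pool B, a log2FC of -1.73 ± 0.35 (SE) (edgeR: adjusted p 0.000251).

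Of 9 genes for partners of eIF4, 2 were A-enriched and 4 B-enriched. Over all genes 18.6% were A-enriched and 22.0% B-enriched, shares that stand beside each group counted in this paragraph. The largest difference was that of Paip2, for an inhibitor that binds the poly(A)-binding protein, at 22.5, 21.8 and 23.2 CPM with pool A and 63.1, 90.9 and 87.4 CPM with pool B and a log2FC of -1.69 ± 0.22 (SE) (edgeR: adjusted p 3.44e-07). Pabpc4, Mknk1 and Mknk2 were B-enriched too, with log2FC values of -0.72, -0.63 and -0.50. Paip1, for an activator that binds the poly(A)-binding protein, was A-enriched, at 45.3, 53.8 and 36.1 CPM against 30.0, 25.2 and 10.2 CPM with pool B and a log2FC of 1.20 ± 0.30 (SE) (edgeR: adjusted p 0.0019). Of 6 genes of the eIF2 phosphatase and stress response group, 3 were A-enriched, among them Ppp1r15b, for a subunit that directs the removal of phosphate from eIF2, at 1.04 ± 0.17 (SE) (edgeR: adjusted p 8.99e-06). TOR signalling had 2 of 9 A-enriched (22.2%), near the share of all genes, and 1, Rheb, B-enriched. The A-enriched included the S6 kinase gene Rps6kb2 with 89.3, 62.9 and 61.5 CPM and 46.4, 33.4 and 25.0 CPM with pools A and B (log2FC 1.17 ± 0.23 (SE), edgeR: adjusted p 0.000167). Ribosome recycling and rescue had 1 of 5 A-enriched (20%), again near the share of all genes. This was Hbs1l, which read 94.7, 81.9 and 114 CPM with pool A and 51.1, 35.6 and 44.6 CPM with pool B (log2FC 1.27 ± 0.19 (SE), edgeR: adjusted p 3.67e-06). Of the 2 selenocysteine insertion genes, Secisbp2 was A-enriched and Eefsec did not pass. Mtor itself had a log2FC of 0.061 ± 0.17 (SE) and Pabpc1, for the main cytoplasmic poly(A)-binding protein, one of -0.0099 ± 0.14 (SE), and neither passed (edgeR: adjusted p 0.817 and 0.964).

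**Figure D5:**
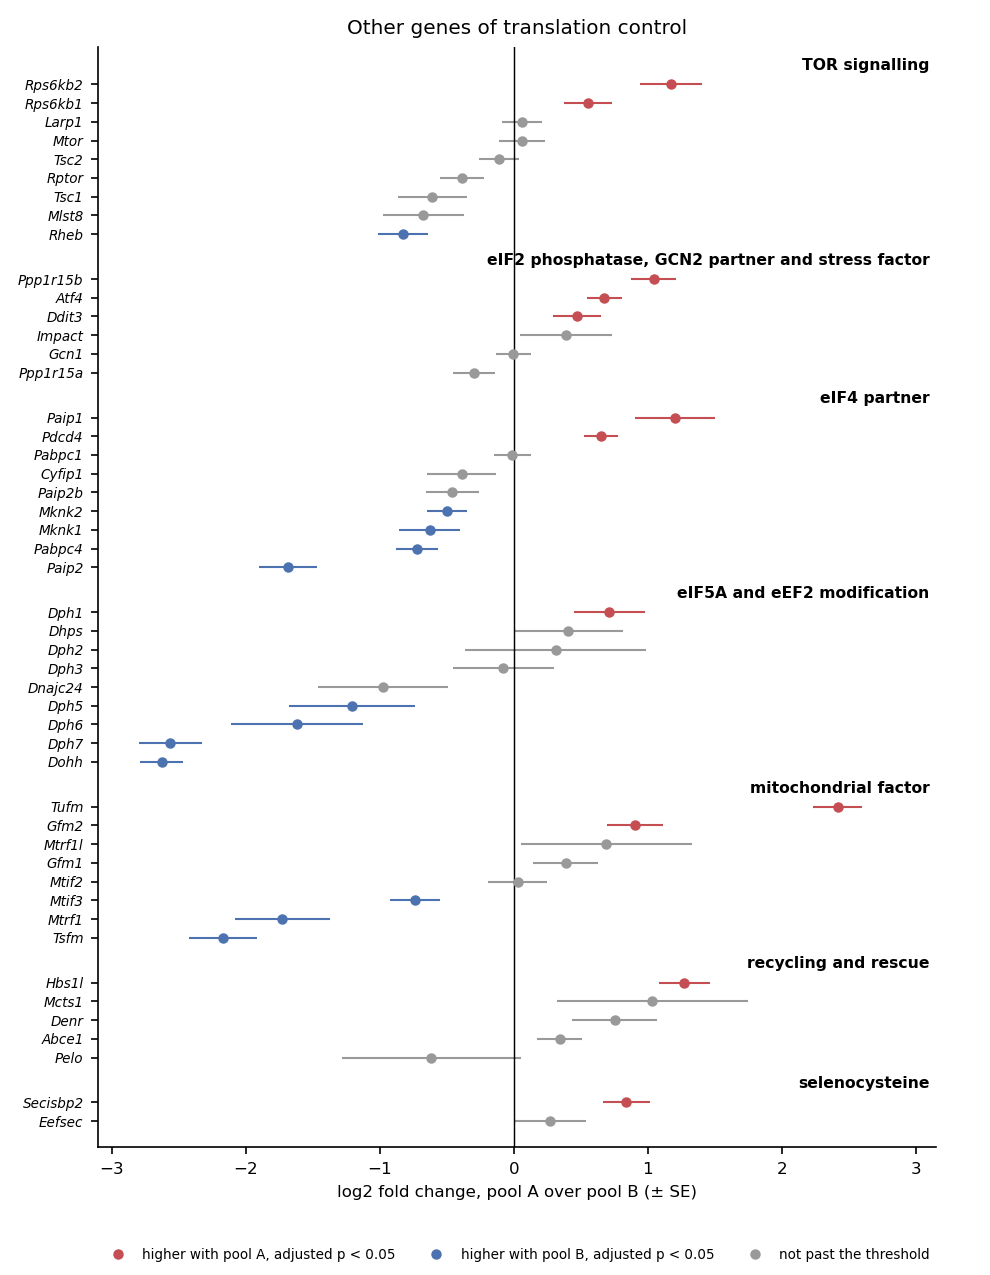
Log2FC, pool A over pool B (horizontal axis, ± SE from edgeR, 3 libraries per pool) for 48 other genes of translation control, grouped by role. Red points are A-enriched and blue points B-enriched at an adjusted p under 0.05, grey points did not pass, and Tufm and Tsfm lie at opposite ends of the mitochondrial group.

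Replicate spread of the factor genes was like that of other genes. Among the 44 with a mean of at least 100 counts, the median coefficient of variation of CPM was 14.2% in pool A and 10.8% in pool B, beside 14.1% and 12.8% over all 4635 genes with such counts. Some of these genes share their span with others, which matters because the strand and overlap rules of the counting are not given in the sources used here. By gene symbol, and none by Ensembl identifier, 67 of the 68 matched the RefSeq gene list of the GRCr8 assembly. The list was used for names and neighbours only, and 29 of the 67 overlapped at least 1 other gene there. Eef2k, Eif2ak2, Eef1d, Eif3j and Eif5a were among those that overlapped a protein-coding gene.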

How the data were processed

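RNA recovered from psoralen-treated GH4C1 cells was measured by strand-specific paired-end sequencing, per the labels' protocols. The authors deposited whole-number counts per Ensembl gene, taken as raw because their sums differ between libraries, and 1 further column per pool that equals the mean of its 3 counts and was not used. STAR and featureCounts are named in the submitters' processing notes; their settings, the genome build and the annotation are not given in the sources used here. Counts were tested with edgeR 4.0.16 in R 4.3.3: TMM scaling, edgeR's expression filter, a quasi-likelihood test with the pool as the only term on all 6 libraries, and Benjamini-Hochberg adjustment over all genes. Each standard error is the size of the log2FC over the root of its F statistic. CPM values use each library's total counts.

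The factor genes, role groups and lists were chosen with earlier results of these data known. Values per library are given for the 12 largest called changes with separate CPM ranges and a mean of at least 10 counts, for the most abundant and most changed gene of each role group, for paralog sets (eIF4A, eIF4G, eIF4E, eEF1A, eIF1, eIF5A, eRF3, eIF4E-binding proteins, eIF2 kinases) and for the 4 largest called changes in each direction of the control list. Others were named to account for every gene. Outside this rule, and with the results known, values per library are also given for Eif2b4, Eif3l, Eif3c, Eef1b2, Eef1g and Paip2. Counts of Eef1akmt1 and the pool B counts of Eif2s3 are given too. Paralog ratios add 0.5 to each count. DESeq2 1.42.0 and limma 3.58.1 (voom) were among the 15 alternatives. Same-numbered libraries did not deviate together (r of 0.0410, -0.0203 and 0.0194 for replicates 1, 2 and 3), so numbers were not taken as pairs.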

Additional observations from a re-analysis of the deposited data

How the results depend on the processing

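The 15 alternatives were other scalings, tests and filters, summed rows of one gene name, a replicate block, and each library left out in turn. Called factor genes stayed within 1.5 times 18 (A-enriched) and 21 (B-enriched) in all of them. Leaving out a library gave 15 to 18 of either kind, and 9 to 12 of either kind in the control list; over all genes it gave 1856 to 2048 and 2194 to 2390. With the replicate number as a block the factor genes called were 18 and 20, which tests no real pairing. Their median log2FC, -0.055, lay between -0.13 and -0.039 without a library. It was -0.19 with total counts and 0.046 with upper-quartile factors.

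The summed level of the factor genes averaged 13613 CPM with pool A and 17770 CPM with pool B. Under TMM effective library sizes these were 14262 and 16841 CPM, and under DESeq2 size factors 14388 and 16805 CPM, a narrower gap; the cause was not tested. Without Eef2 the sums were 9459 and 12076 CPM for pools A and B, lower by construction. Leaving out a library gave 13245 to 14213 and 17401 to 18052 CPM.

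Of 659 refits of 44 named genes, 626 kept direction and call, 19 lost the call, 6 gained it and 8 turned the sign of a value that had not passed. The signs were those of Eif5a (-0.11 with total counts, -0.040 to 0.21 without a library), Eif2ak1 (0.046 with upper-quartile factors, -0.23 to 0.16 without a library) and Eif1b (-0.19 to 0.47 without a library). Gspt2 and the methyltransferase genes had few counts and wide standard errors. The 44 genes include those picked for the largest called changes, which favours kept calls. Over all 39 called factor genes, 12 lost the call somewhere among the alternatives.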
